A study of Bos taurus with 20 samples.

Results

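After 96 h in low serum, bovine satellite cell cultures drew their messenger RNA from a different and narrower set of abundant genes than growing cultures did. The comparison set the 4 libraries taken at 96 h against the 4 taken at 0 h, 8 of the 20 libraries of a time course in medium with little serum. Libraries were grouped by sampling time alone, so every gene was free to differ or not. The comparison was chosen with earlier results of these data known. The 0 h cells were satellite cells of the Belgian Blue breed grown on collagen with 20% fetal bovine serum. The 96 h cells were the same kind of cells after an abrupt change to 2% serum, and all groups shared the breed, the cell type and the polyA libraries. No library of 96 h came from cells kept in 20% serum, so serum level and time in culture cannot be told apart. The labels name no transgene, deletion or drug. Batch 1 was made up of replicates A and B and batch 2 of C and D, with 2 libraries of each time point in either. The number of animals behind the replicates was not given in the sources used here, so p-values measure the spread between these cultures.

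Satellite cells are the stem cells of skeletal muscle. They divide while serum growth factors are plentiful, and loss of serum is commonly used to make them leave the cell cycle, fuse into myotubes and build the contractile apparatus. Mature muscle is known for a messenger RNA pool in which a small number of contractile and metabolic transcripts take a large part, and the question followed here is how far the cultures had gone towards such a pool. The counts table named genes by Ensembl cattle identifiers, and 0 of these were paired with a symbol in the gene table used. The labelled cell type was therefore not checked against marker genes, and no gene is given a function. All ranks and abundance classes below are of reads, in CPM, the counts of a gene scaled to a fixed total of all counts in its library. Longer transcripts yield more reads per molecule, so a rank is not an order of molecules.

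Total counts lay between 23955980 and 41998509 at 0 h and between 21100797 and 35140615 at 96 h. No library stood in for another, since all 30 pairs of replicates in the series differed by more than counting noise, with 3.77 to 37.4 times the variance per gene that sampling alone gives.

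The 96 h cultures put more of their counts into fewer genes. The 100 most abundant genes of each library held 19.2%, 19.4%, 18.6% and 18.4% of counts in replicates A to D at 0 h and 30.2%, 30.3%, 30.8% and 30.3% at 96 h. Every 96 h library lay above every 0 h library. The means were 18.9 ± 0.480% and 30.4 ± 0.265% (SD over 4 libraries), a difference of 11.5 percentage points (two-sided exact permutation test, p = 0.0286, the smallest that 4 against 4 libraries allow). Within batch 1 the difference was 10.9 points and within batch 2 it was 12 points. In bulk cultures, a change in the share of cells of one kind and a change in the RNA made per cell cannot be told apart.

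Counting from the top, 50% of all counts were reached with 827, 833, 873 and 873 genes in replicates A to D at 0 h. At 96 h it took 512, 510, 492 and 512 genes. The 2 sets of values were far apart, with means of 851.5 ± 24.9 and 506.5 ± 9.71 genes (SD over 4 libraries; two-sided exact permutation test, p = 0.0286), and the difference was -319 genes in batch 1 and -371 in batch 2. For 25% of counts the number went from 177 ± 7.62 to 57.5 ± 1.73 genes, and for 90% from 5342 ± 89.3 to 4655 ± 55.8 genes (exact permutation test, p = 0.0286 for each). Within batches 1 and 2 these differences were -112 and -127 genes for 25% and -608.5 and -765 for 90%. The ratio of 96 h to 0 h was thus 0.325 for the first 25% of counts, 0.595 at 50% and 0.871 at 90%. The narrowing was steepest at the very top of the order, and the single most abundant gene of each library held 0.825 ± 0.0762% of counts at 0 h and 2.27 ± 0.112% at 96 h.

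**Figure D1:**
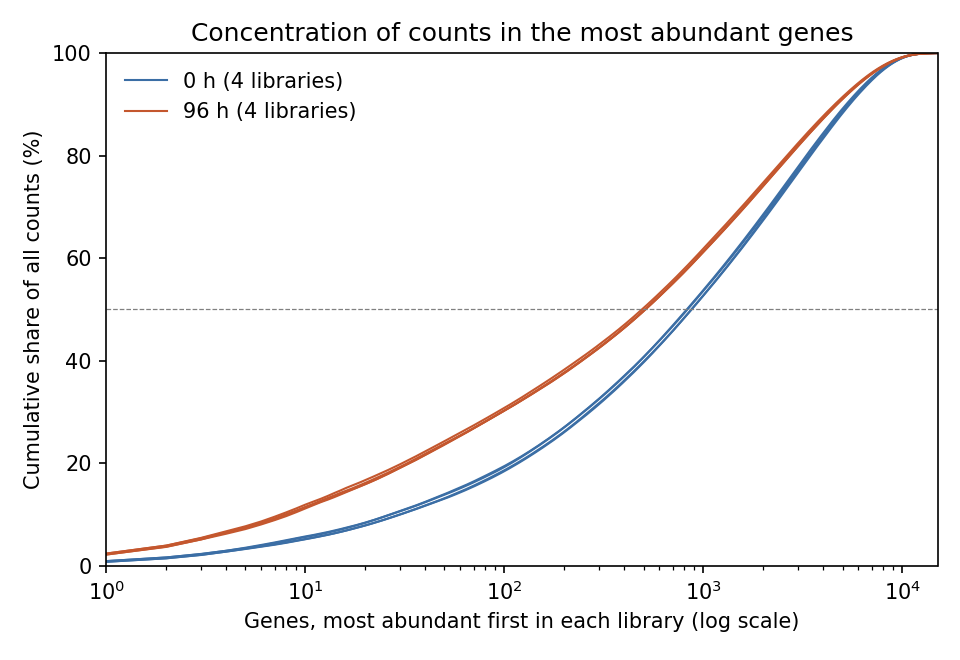
Cumulative share of all counts (%) against the number of genes, most abundant first, on a log axis, with 1 line per library at 0 h (blue) and 96 h (orange). The 96 h lines cross the dashed 50% line at 492 to 512 genes and the 0 h lines at 827 to 873.

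Whether the number of detected genes differed depended on the minimum. At a minimum of 1 CPM, 12426, 12585, 12600 and 12592 genes were detected in replicates A to D at 0 h and 12584, 12572, 12474 and 12581 at 96 h. These values overlapped, with means of 12551 ± 83.4 and 12553 ± 52.7 genes (SD of 4; two-sided exact permutation test, p = 1). The difference between the means, 96 h minus 0 h, was 72.5 genes in batch 1 and -68.5 in batch 2. At a minimum of 10 CPM the groups did separate, with 9209 ± 102 genes at 0 h and 8560 ± 74.4 at 96 h (exact permutation test, p = 0.0286). That difference was -552.5 genes in batch 1 and -747 in batch 2. At a minimum of 0.1 CPM the values overlapped, with 15066 ± 157 genes at 0 h and 15291 ± 133 at 96 h (exact permutation test, p = 0.0857). Thinning all libraries to 21100797 counts removed that overlap, with 14797 to 14999 genes at 0 h and 15094 to 15169 at 96 h (exact permutation test, p = 0.0286), a difference of 289.5 genes in batch 1 and 141.5 in batch 2. The 96 h libraries thus had fewer genes above the highest minimum and, at equal depth, more above the lowest.

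The abundance classes showed where the numbers went. Genes between 100 and 1000 CPM in their own library numbered 2216 ± 29.9 at 0 h and 1838 ± 11.8 at 96 h, and their share of counts went from 53.8 ± 0.575% to 43.6 ± 0.0553%. The class of at least 1000 CPM grew little in number, from 83.8 ± 2.22 to 97.0 ± 2.16 genes, while its share went from 17.4 ± 0.412% to 30.1 ± 0.287%. At the low end, genes between 1 and 10 CPM numbered 3342 ± 43.3 at 0 h and 3993 ± 27.1 at 96 h (SD, n = 4 for each value). In each of these 3 classes the highest library of one time point lay below the lowest of the other. The cut-offs apply to CPM of all counts, so the class of a gene also depends on what other genes hold. With library sizes alone, the median log2 change of all tested genes was -0.40. How far that shift across fixed cut-offs accounts for the numbers was not tested.

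The fraction of genes replaced was highest in the shortest lists of abundant genes. By mean CPM, the 100 most abundant genes of 0 h and the 100 of 96 h had 32 genes in common. Between single libraries of 0 h and 96 h the number shared was 27 to 34 over 16 pairs. Libraries of the same time point shared 91 to 95 genes, over 6 pairs at 0 h and 6 pairs at 96 h, so the ranges did not meet. Batch 1 alone gave 32 shared genes and batch 2 alone 28, while the lists of both batches shared 93 genes at 0 h and 92 at 96 h. The share of genes in common grew with the length of the list, from 26% of the 50 most abundant to 40% of 200, 52% of 500, 61.1% of 1000 and 80.3% of 5000. The list has no gap at its end, since the gene at rank 100 had 921 CPM and the next 920 CPM at 0 h, with 976 and 975 CPM at 96 h.

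The 68 genes that entered and the 68 that left did not mirror each other. Entering genes came from far down, with a median rank of 2767 at 0 h and a range of 108 to 12634. Of these, 42 had ranked below 1000 and 27 below 5000, and 15 had under 10 CPM at 0 h. Leaving genes went only a short way, to a median rank of 252.5 at 96 h and a range of 106 to 2862. Of these, 57 were still among the 500 most abundant and 6 had dropped below rank 1000. Of the 68, 1 was below 100 CPM at 96 h, and the whole set ranged from 66.6 to 949.6 CPM there. The asymmetry held in each batch taken alone and with each of the 8 libraries left out, where the median 0 h rank of entering genes lay between 2333 and 2894 without single libraries and the median 96 h rank of leaving genes between 245.5 and 260.5.

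**Figure D2:**
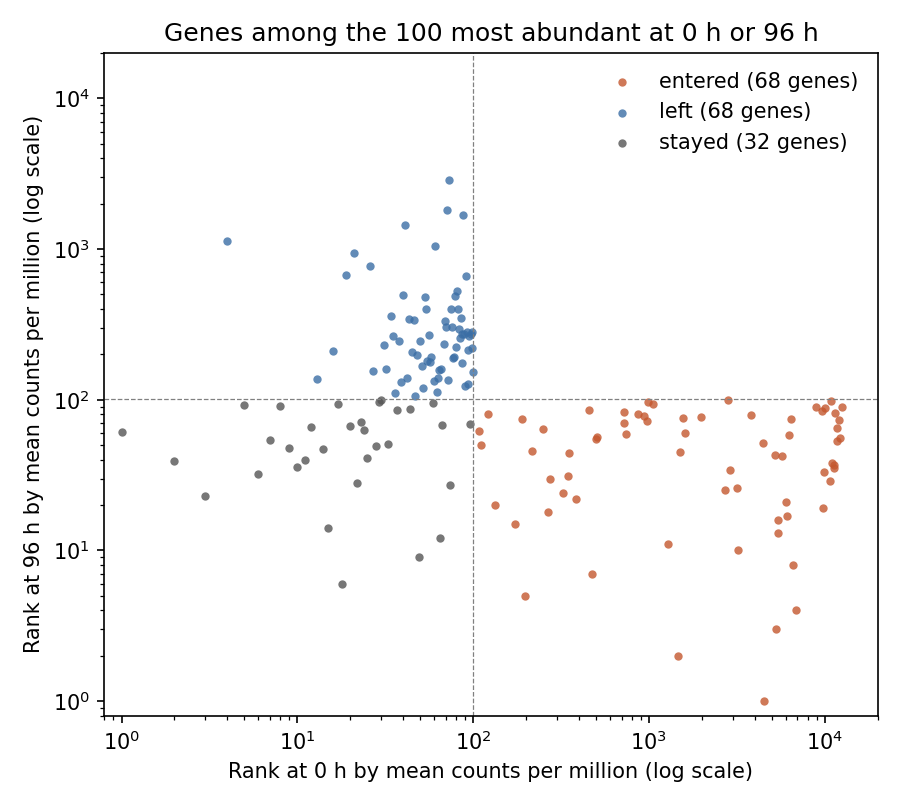
Rank at 96 h against rank at 0 h, both by mean CPM on log axes, for the 168 genes among the 100 most abundant at either time (dashed lines at rank 100). The 68 entering genes (orange) spread out to a 0 h rank of 12634, while the 68 leaving genes (blue) end at a 96 h rank of 2862.

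The fitted changes of these sets are given as a description, because the sets were chosen on the same levels. Across all 14636 genes tested, 80.4% differed between 96 h and 0 h (edgeR quasi-likelihood test, Benjamini-Hochberg adjusted p under 0.05), 40.2% higher and 40.2% lower. Of all genes tested, 20%, 10.5% and 4.3% were called and higher by 2-fold, 4-fold and 16-fold or more. Called losses of these sizes made up 16.7%, 5.73% and 0.622%. The 68 entering genes were called higher without exception, with a median log2 change of 5.47 and a range of 0.90 to 10.69, and 39 had changed at least 16-fold. Among the 68 leaving genes 62 were called lower and 2 higher, with a median log2 change of -0.89 and 29 with a change of at least 2-fold. The 2 called higher had lost share of counts, and their sign came from the scaling described below. On CPM of all counts, the 4 libraries of each time point did not overlap for 68 of 68 genes in each set, where 77.1% of all tested genes were separated in that way (73% on CPM of scaled library sizes).

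The 32 genes present in both lists mostly slid down in rank, which also depends on the genes that came to stand above them. At 96 h, 26 of them had a worse rank and 6 a better one, and 23 had changed less than 2-fold in the fit. Their median log2 change was -0.12, with 12 called higher, 15 lower and 5 not called. Of the 10 most abundant genes of 0 h, 9 were still among the 100 most abundant, while the 10 together had 96 h ranks of 23 to 1131, with a median of 51. The 10 most abundant of 96 h had 0 h ranks of 18 to 6889, with a median of 2341.5, and 2 of them had been in the list at 0 h.

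ENSBTAG00000011803 was the most abundant gene at 96 h and had the largest gain of CPM among entering genes. It had 29.0, 64.0, 36.6 and 60.6 CPM in replicates A to D at 0 h and 21677, 21744, 23642 and 23644 CPM at 96 h. Replicates B and D were the higher ones at 0 h, and the 96 h mean was 477 times the 0 h mean. Its rank went from 4536 to 1, and its share from 0.00476% to 2.27% of all counts. The log2 fold change was 9.29 with a standard error of 0.27 (edgeR quasi-likelihood test, adjusted p = 2.16e-15).

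ENSBTAG00000021218 had the next largest gain of CPM among them. Its level was 21.9, 43.7, 36.4 and 50.3 CPM in replicates A to D at 0 h and 14155, 14685, 15605 and 15468 CPM at 96 h, with no overlap. Its rank was 5260 at 0 h and 3 at 96 h. The log2 fold change was 9.03, standard error 0.22 (edgeR adjusted p = 1.04e-16). Both genes had already reached ranks 26 and 33 at 24 h, at 2065 ± 473 and 1622 ± 375 CPM (SD, n = 4 each).

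ENSBTAG00000005260 had the largest loss of CPM among leaving genes. In replicates A to D it stood at 6354, 5994, 6179 and 6547 CPM at 0 h and at 181, 177, 150 and 128 CPM at 96 h. Its rank went from 4 to 1131, and the log2 fold change was -4.90, standard error 0.15 (edgeR adjusted p = 7.15e-16). Most of that loss was present at 24 h, where it had 522 ± 113 CPM (SD, n = 4). Of the 68 leaving genes, this was the 1 with a change beyond 16-fold.

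ENSBTAG00000012697 followed with 2482, 2468, 2376 and 2361 CPM in replicates A to D at 0 h and 192, 191, 188 and 207 CPM at 96 h. The replicates of each time point were close to each other. Its rank went from 21 to 935, and the log2 fold change was -3.23, standard error 0.06 (edgeR adjusted p = 1.16e-23). Its decline was spread over the time course, and the levels at 24, 48 and 72 h were 795 ± 13.6, 434 ± 35.7 and 306 ± 16.1 CPM (SD, n = 4 each).

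Entering genes as a group held 1.38%, 1.48%, 1.43% and 1.47% of counts in replicates A to D at 0 h and 22.4%, 22.5%, 23.2% and 22.7% at 96 h. Leaving genes held 9.56%, 9.62%, 9.52% and 9.36% at 0 h and 3.53%, 3.48%, 3.32% and 3.43% at 96 h. The 32 genes in both lists held 9.39 ± 0.379% before and 7.63 ± 0.107% after (SD, n = 4 each). The share taken up by entering genes was more than the leaving and remaining genes together gave up. To keep choice and measurement of these sets apart, the batches were exchanged. In batch 2, the 68 genes that entered in batch 1 held 1.58% of counts before and 22.9% after, and the 72 that entered in batch 2 held 1.56% and 22.8% in batch 1. The batches had 64 entering genes in common. For the other sets the shares moved with the number of genes chosen. The 68 leaving genes of batch 1 held 9.35% before and 3.31% after in batch 2, whereas the 72 of batch 2 held 10.9% and 3.90% in batch 1. The 32 remaining genes of batch 1 went from 9.10% to 7.48% in batch 2, and the 28 of batch 2 from 8.31% to 7.27% in batch 1.

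The times in between filled in the course of both sets, which were chosen on the end points. Of the 68 entering genes, 20 were among the 100 most abundant at 24 h, 49 at 48 h and 57 at 72 h, and the share of the set was 5.33 ± 0.394%, 15.4 ± 0.530% and 19.1 ± 0.574% at these times. Of the 68 leaving genes, 41 were still in the list at 24 h, 9 at 48 h and 4 at 72 h, with 6.73 ± 0.210%, 4.47 ± 0.102% and 3.88 ± 0.0788% of counts (SD, n = 4 each). From 48 h to 96 h the leaving set moved from 4.47% to 3.44% and the entering set from 15.4% to 22.7%.

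**Figure D3:**
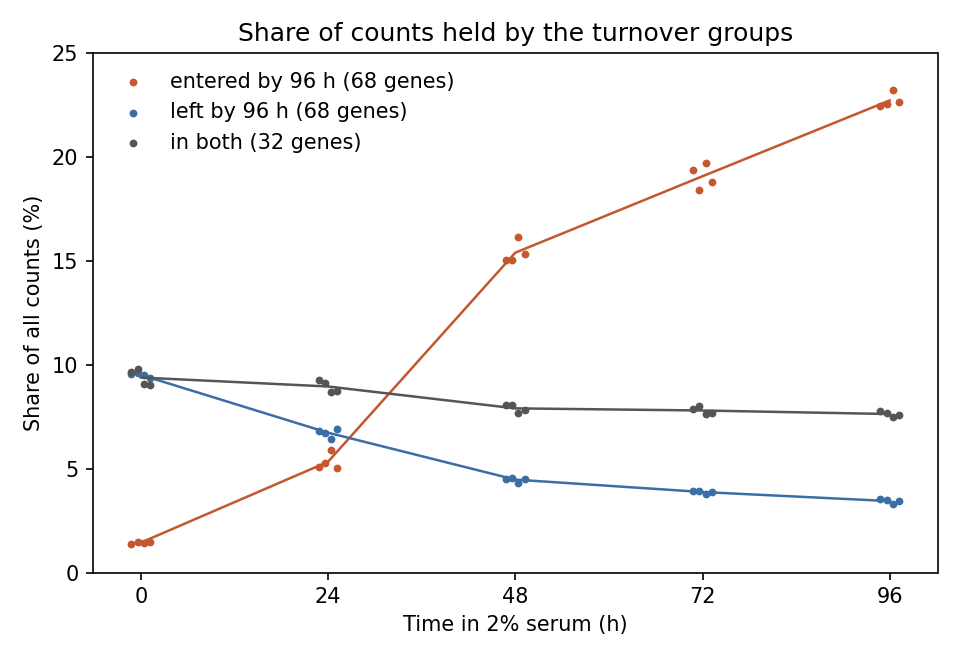
Share of all counts (%) held by the 68 entering, 68 leaving and 32 remaining genes against time in 2% serum (h), with 1 point per library and lines through the means of 4 libraries. The entering set starts at 1.44% and ends at 22.7%, and the leaving set goes from 9.51% to 3.44%.

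How much of all counts changed hands was measured as the sum of the gains in share over all genes that gained. Between a 0 h and a 96 h library this was 39.0% to 40.8% of counts over 16 pairs, with a median of 39.6%. Between libraries of the same time point it was 3.51% to 5.35% at 0 h and 3.23% to 4.74% at 96 h, over 6 pairs each. Pairs from the same batch and from different batches had medians of 39.6% and 39.5% between time points. The largest difference between replicates was thus far below the smallest between time points.

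Gains in share were concentrated and losses in share were spread. On group means, 7650 genes gained share and 12135 lost share. The shares of a library have a fixed sum, so gains in some genes lower the share of the others. A loss of share is therefore not by itself a fall in level, and under TMM scaling 5886 genes were called higher and 5884 lower. How much of the spread of losses came from this was not tested. Of the total gain, 50% lay in 40 genes and 90% in 733. For the total loss the corresponding numbers were 401 and 3071 genes. The 10 largest gains made up 27.7% of the total gain and the 10 largest losses 9.47% of the total loss. In the same way, the 100 genes with the largest gains in batch 1 were measured in batch 2, where they went from 2.65% to 28.4% of counts. The 100 largest losses of batch 1 went from 16.5% to 5.58% in batch 2. With the batches exchanged, the values were 2.50% to 27.6% and 17.5% to 6.17%.

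Leaving out the entering genes turned the direction of the narrowing. When the genes that entered in the other batch were left out, the remaining genes held 98.4 ± 0.0505% of counts before and 77.1 ± 0.248% after (SD, n = 4 each), which is a log2 ratio of -0.35. Among them, 50% of the remaining counts was reached with 824, 831, 872 and 872 genes in replicates A to D at 0 h and with 939, 934, 919 and 938 genes at 96 h. The order of the time points had turned, with the 96 h counts spread over more genes (two-sided exact permutation test, p = 0.0286), by 109 genes in batch 1 and 56.5 in batch 2. The number of genes at 10 CPM or more, now relative to the remaining counts, was 9192 ± 101.02 at 0 h and 9141 ± 61.5 at 96 h, and these overlapped (exact permutation test, p = 0.343), with differences of 39.5 genes in batch 1 and -141.5 in batch 2. At 1 CPM or more the remaining genes numbered 12489 ± 69.9 before and 12784 ± 46.8 after, without overlap (exact permutation test, p = 0.0286), by 341.5 genes in batch 1 and 247.5 in batch 2. Leaving genes out adds no detected gene. The separation at 1 CPM, absent over all genes, came with division by the remaining counts, 98.4% of counts at 0 h and 77.1% at 96 h. It is therefore relative to those counts. Leaving out the entering genes removes leaders of 96 h and not those of 0 h. With the 100 most abundant genes of both time points left out, the number for 50% was 1265.5 ± 23.8 at 0 h and 1187 ± 21.9 at 96 h (SD of 4 libraries; exact permutation test, p = 0.0286). The remaining genes thus kept the direction of the whole, with a difference of -78.3 genes (-47 in batch 1 and -109.5 in batch 2) beside -345 for all genes. At 1 CPM or more, again relative to the remaining counts, they numbered 12609 ± 67.8 at 0 h and 12889 ± 33.4 at 96 h (exact permutation test, p = 0.0286). The difference was 310.5 genes in batch 1 and 250.0 in batch 2.

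Fold changes depended on the scaling. TMM, which scales libraries so that most genes do not change on average, gave factors of 1.13 ± 0.0272 for the 0 h libraries and 0.854 ± 0.0117 for those of 96 h (SD, n = 4 each). On library sizes alone the median log2 change of all tested genes was -0.40. The 5886 genes called higher and 5884 called lower under TMM became 4007 and 8304 on library sizes alone. Directions of single moderate changes are therefore relative to the typical gene, while shares and ranks within a library do not depend on the scaling.

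The share of genes called grew with abundance. Tested genes were classed by mean CPM over the 8 libraries. Of 1816 genes under 1 CPM, 65.4% were called, and the share was 75.5% of 3528 genes at 1 to 10 CPM, 84.1% of 7107 at 10 to 100, 88.9% of 2095 at 100 to 1000 and 92.2% of 90 at 1000 CPM or more, beside 80.4% of all. The median standard error of the log2 change was 0.36 in the lowest class and between 0.06 and 0.16 in the others. Changes of at least 2-fold followed another order. They were called for 56.0% of genes under 1 CPM, 40.6%, 29.96% and 34.6% in the next 3 classes and 64.4% at 1000 CPM or more, beside 36.6% of all.

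Both ends of the abundance scale leaned towards higher levels at 96 h. In the top class 51 genes were called higher and 32 lower, of which 38 and 5 had changed at least 4-fold, and the median log2 change was 0.82. Under 1 CPM, 755 were called higher and 433 lower, with a median of 0.36. In the 3 middle classes the medians were -0.05, -0.04 and 0.02. On library sizes alone the top class had a median of 0.42 and kept 47 higher against 40 lower, while the class under 1 CPM turned to -0.03, with 632 higher and 602 lower. Changes of at least 16-fold went mainly upwards, with 630 genes higher and 91 lower. Every class had more of the former, with 25 and 1 in the top class and 159 and 27 in the lowest.

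**Figure D4:**
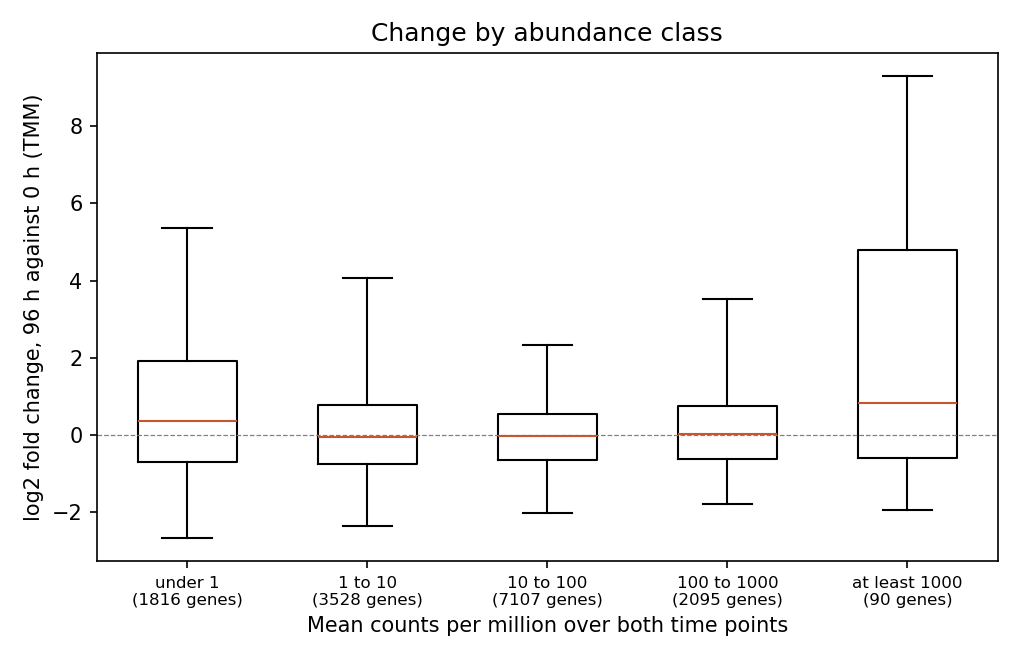
Log2 fold change for 96 h against 0 h (TMM scaling) by class of mean CPM over both time points. Boxes span the quartiles, orange lines mark medians and whiskers reach the 5th and 95th percentiles of genes. The box of the 90 genes at 1000 CPM or more reaches an upper quartile of 4.79, against 0.56 in the class of 10 to 100 CPM.

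A class set on the mean of both time points takes in genes that are high at only one of them. Classes were therefore also set at 0 h in one batch, with the change measured in the other. Of the 84 genes at 1000 CPM or more at 0 h in batch 1, 64 were called lower and 12 higher in batch 2 alone, with a median log2 change of -0.61. In the reverse direction 68 of 85 genes were called lower and 9 higher in batch 1, with a median of -0.73. Over all genes, batch 2 alone had 5330 called higher and 5202 lower, and batch 1 alone had 5554 and 5537. In the fit of both batches 80.4% of all tested genes were called. Among tested genes, 2117 and 2044 were under 1 CPM at 0 h, and these had medians of 0.55 and 0.59. Of them, 35.6% and 35.2% were up by 2-fold or more and 1.75% and 1.76% down by as much. A gene this low at 0 h could pass the filter on low counts through another time point, which favours rises. Without the filter, 7234 genes with a count at either time were under 1 CPM at 0 h, and 6556 of them stayed there. A gene near 0 has little room to fall, so the low end of this comparison is one-sided by construction.

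Set at 96 h, the classes gave the opposite picture at the top. The 97 genes at 1000 CPM or more at 96 h in batch 1 had a median log2 change of 2.91 in batch 2, where 77 were called higher and 14 lower. The 97 of batch 2 had a median of 3.14 in batch 1, with 79 higher and 13 lower. Over all genes, the calls of both single-batch fits were split nearly evenly, as given above. The median change of genes abundant at 96 h was thus further from 0 than that of genes abundant at 0 h, in both directions of the exchange.

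Followed as shares of counts, genes rare at 0 h held a larger part at 96 h. Classes were set at 0 h in the other batch. Genes under 1 CPM at 0 h held 0.112 ± 0.0105% of counts before and 1.72 ± 0.0993% after. The class of 1 to 10 CPM went from 1.504 ± 0.132% to 6.32 ± 0.405%, and the class of 10 to 100 CPM from 27.3 ± 0.573% to 36.5 ± 0.153%. The classes above lost share, from 53.7 ± 0.349% to 45.2 ± 0.454% at 100 to 1000 CPM and from 17.4 ± 0.543% to 10.2 ± 0.199% at 1000 CPM or more (SD, n = 4 for each value). In all 5 classes the 4 libraries of 0 h and the 4 of 96 h did not overlap.

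**Figure D5:**
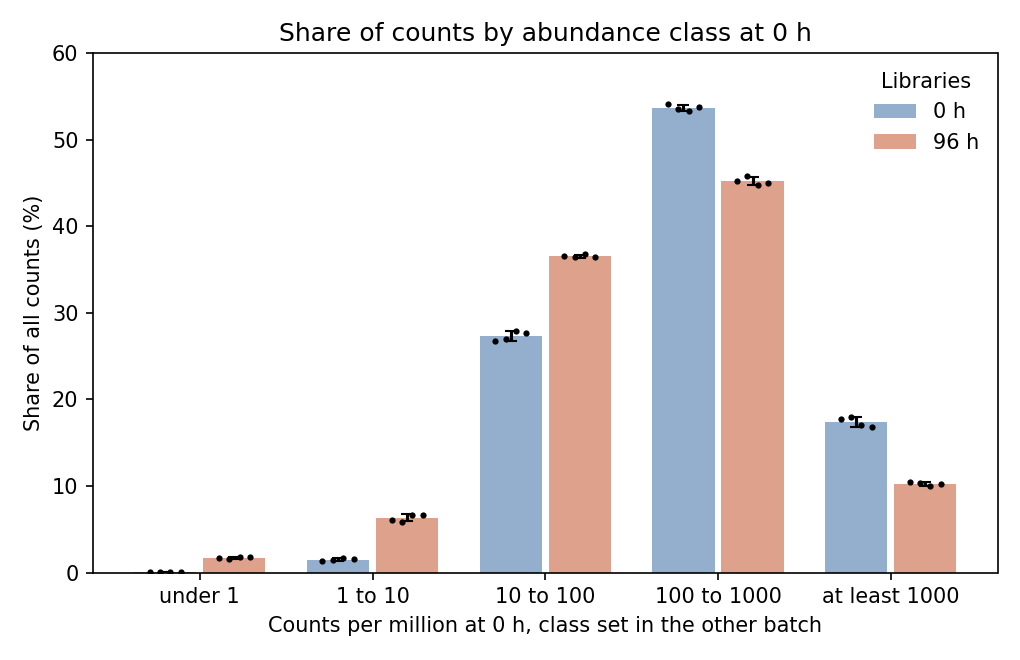
Share of all counts (%) at 0 h (blue) and 96 h (orange) for genes classed by their CPM at 0 h in the other batch. Bars are means of 4 libraries starting at 0, error bars are SD and points are libraries. The 3 lower classes gained share and the 2 upper classes lost it, from 17.4% to 10.2% at 1000 CPM or more. Setting the classes at 0 h favours this direction by selection.

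Moves by several classes were mostly upward. Of 19785 genes with a count at either time, 15247 stayed in their class of mean CPM. Upward moves numbered 1399 by 1 class and 247 by 2 or more, and downward moves 2850 and 42. These classes use CPM of all counts, and with library sizes alone the median log2 change of all tested genes was -0.40. Small moves down are therefore relative to the library total. Under TMM scaling 5886 genes were called higher and 5884 lower. A rise of 3 classes or more, which spans at least 2 whole classes in between, was seen in 56 genes, and a drop of that size in 0. Fewer genes were placed to make such a drop. At 0 h, 7234 genes under 1 CPM and 3337 at 1 to 10 CPM could rise that far. Only the 2219 at 100 to 1000 CPM and the 86 above could drop as far. Between the batches of one time point, 0 genes moved by 2 classes or more, and 3.42% of genes at 0 h and 3.63% at 96 h moved by 1. Within batch 1 the moves of 2 or more classes from 0 h to 96 h numbered 255 up and 43 down, and within batch 2 they were 245 and 41. Of the 96 genes at 1000 CPM or more at 96 h, 29 had been in that class at 0 h, 34 at 100 to 1000 CPM, 19 at 10 to 100, 13 at 1 to 10 and 1 under 1. Of the 86 genes in the top class at 0 h, 56 were at 100 to 1000 CPM at 96 h and 1 was lower still.

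Called genes held most of all counts at both times, as most genes were called. In the fit of both batches the share called was 80.4% of all tested genes. It was 84.1% to 92.2% in the classes from 10 CPM up, so a large total does not set called genes apart. The 5554 genes called higher in batch 1 alone held 24.996% of counts before and 64.2% after in batch 2. The 5537 called lower went from 59.6% to 24.1%. Genes called and at least 16-fold higher in batch 1 numbered 689 and went from 0.356% to 22.5% of counts in batch 2, and the 105 at least 16-fold lower went from 1.03% to 0.0243%. With the batches exchanged, 654 genes went from 0.322% to 21.7% and 120 from 0.997% to 0.0285%. The choice by size of change keeps the share of the former low at 0 h and that of the latter low at 96 h. The shares it left free, measured in batch 2, were 22.5% for the former at 96 h and 1.03% for the latter at 0 h.

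The 96 h against 0 h change did not differ detectably between batches for any single gene. A batch by time test called 0 of 14636 genes (edgeR quasi-likelihood test, smallest adjusted p = 0.479), with 921 genes (6.29%) at an unadjusted p under 0.05. With 2 libraries per time point in each batch, small differences were not detectable.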

How the data were processed

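The authors deposited raw read counts per gene, whole numbers with a different total in each library, for 27607 genes in 20 libraries. All columns matched a library by name, and 0 lines named no gene. Per the labels' protocols, a kit that marks strand was used for the mRNA libraries, with 75 bp reads. The tools named were STAR 2.7 and featureCounts with the bosTau9 build, per the submitters' processing notes. Sources used here do not give their order, annotation release or strand setting, so overlapping genes and near-identical copies may share reads.

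Shares, ranks and abundance classes used the counts of all genes divided by the library total, as CPM, with no filter. Fold changes came from edgeR 4.0.16 in R 4.3.3. Genes were kept by filterByExpr (minimum count 10, minimum total 15), which left 14636 genes with at least 99.967% of each library's counts. Libraries were scaled by TMM, and a robust quasi-likelihood model with terms for batch and time took in all 20 libraries. Adjusted p-values are Benjamini-Hochberg over all genes tested, with calls under 0.05. Values per library were compared by two-sided exact permutation over 70 regroupings, which ignore batch, and differences within batches are given beside these tests. The common biological coefficient of variation was 8.32%. Changes measured in 1 batch used log2(CPM + 0.5) on scaled sizes. The fit was tested on simulated data.

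The named genes were, among called genes without overlap, the 2 with the largest gain of CPM that entered the 100 most abundant and the 2 with the largest loss that left. Gene lists and markers set by symbol were not tested. Members, lists and settings were chosen with earlier results of these data known. Alternatives were other scalings, no filter, DESeq2 1.42.0, other sample sets, a replicate block, a 2-fold minimum, other list lengths and left-out libraries. The labels do not say whether a replicate letter marks 1 culture line across time points, and correlations between libraries gave no sign of it. Figures used matplotlib 3.10.9.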

Additional observations from a re-analysis of the deposited data

Results flagged for a closer look

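Of 54 sets of 4 libraries checked with Dixon's test, 5 held a library far from the other 3, and chance gives about 1 in 20. Replicate C at 96 h accounted for 4 of them. Its 100 most abundant genes held 30.8% of counts against 30.2% to 30.3% in the others, and 492 genes reached 50% of its counts against 510 to 512. The same library had 12474 genes at 1 CPM or more, where the others had 12572 to 12584, and a TMM factor of 0.837 beside 0.858 to 0.861. It also had the smallest total, 21100797 counts. These measures describe one property of the library, so the 4 are not independent. Replicate A at 0 h had 12426 genes at 1 CPM or more, with 12585 to 12600 in the others. Neither library lay on the wrong side of a difference reported above.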

How the results depend on the processing

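The scaling decided the split of directions: with library sizes alone 32.55% of calls were higher, against 50.01%, and 416 genes called in both fits had opposite signs. Asking for a minimum change of 2-fold, a stricter question, lowered the calls from 11770 to 4382. The other 19 settings gave 10532 to 12703 calls, with 11706 under a replicate block, where 99 of the 11770 calls were lost and the 4 named genes were kept. No sign of pairing by replicate letter was seen. Libraries of 0 h and 96 h with the same letter had correlations of -0.15, -0.26, -0.11 and -0.15 in their deviations. Of the 4 letters, 0 correlated best with their own. With 4 libraries per time point, such correlations cannot exclude a common origin. Each 0 h library correlated best with the other letter of its own batch, at 0.47, 0.42, 0.34 and 0.46 for A to D. A block on that crossed order was not fitted, since no label gives it. Without the entering genes, the number of genes for 50% of counts was 82.8 higher at 96 h and the share of the 100 most abundant of the rest differed by -2.29 points. That alternative, the one without both sets of 100, the exchange of batches for called genes and the settings for ranks and gains were chosen after seeing the data. The number of genes detected moved by -649.8 at 10 CPM and between -39.6 and 28.3 without single libraries, turning sign in 4 of 8. Lists of 500 genes had 52% in common, and leaving genes had a median 96 h rank of 140, 417 and 859 for lists of 50, 200 and 500, which follows from the length of the list. Median log2 changes by class depended on how the class was set: under 1 CPM they were -0.0315 with library sizes alone, 0.57 with classes set at 0 h and -0.13 at 96 h. At 1000 CPM or more they were 0.42, -0.67 and 3.03. The class of 10 to 100 CPM turned to 0.0199 with classes set at 96 h, and the class of 100 to 1000 CPM to -0.38 with library sizes alone and to -0.27 with classes set at 0 h. Genes called in batch 2 and measured in batch 1 changed their share by 38.5 points where higher and by -34.4 points where lower. The 4 named genes kept direction and call in 20 of 20 settings each, which their choice for large changes nearly fixed. At these depths, genes under 1 CPM had a median standard error of 0.36 on the log2 scale, which limits what can be called there.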

Other observations

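The 0 h libraries were not alike in genes that later became abundant. Of the 27 entering genes with a 0 h rank below 5000, 26 were higher in both replicates B and D than in both A and C at 0 h on scaled CPM, and 0 were lower in both. The same order was seen in 8.75% of all tested genes, and 6.86% had the reverse. Together the 27 genes held 0.0314% of counts in replicate A, 0.0469% in B, 0.0395% in C and 0.0488% in D. Among the 630 genes called and at least 16-fold higher at 96 h, 194 (30.8%) had this order and 37 (5.87%) the reverse. B and D belong to different batches and were the deepest and the shallowest of the 0 h libraries, with 41998509 and 23955980 counts. The order with B and D above A and C was noticed after the values were seen, and its cause was not tested. The levels concerned are small beside those of 96 h, where the entering genes held 22.7 ± 0.351% of counts (SD, n = 4).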
